A study of Mus musculus with 12 samples.

Results

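The 3 Gadd45 genes and 6 well-known targets of the transcription factor p53 were followed through the isolation and culture of mouse hepatocytes. The 9 genes, Gadd45a, Gadd45b, Gadd45g, Cdkn1a, Mdm2, Ccng1, Plk2, Btg2 and Trp53inp1, were chosen by name from the 32285 genes of the matrices, of which 32158 have a symbol. Their spliced, unspliced and ambiguous UMIs (unique molecular identifiers, each marking 1 captured RNA molecule) were read in single nuclei and summed per sample and cell type. Each of 8 wild-type adult male mice, labelled C57BL6J in the deposited records and C57BL/6NTac in the study's methods, gave 3 samples. Liver (L) was a piece of lobe cut after calcium-free perfusion and before collagenase. Cell Suspension (CS) was the hepatocyte fraction of the same liver after collagenase digestion and low-speed spins in plating medium. Primary Hepatocytes (PH) were the same cells after 24 hours on collagen in medium with dexamethasone and insulin, detached with trypsin. No gene was deleted and no drug was compared, so the groups differ by isolation and culture, and each step adds enzymes, temperature changes, medium and time together. The 24 samples were marked with hashtag antibodies and run in 6 pools of 4, and 2 of the pools held both Liver and Primary Hepatocytes.

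p53, encoded by Trp53, is a transcription factor that is kept low by the ubiquitin ligase Mdm2, itself a p53 target, and that accumulates after DNA damage and other stress. Its targets slow the cell cycle, aid repair or promote cell death, and several of them are also induced without p53 by growth factors, cytokines or kinases. The Gadd45 proteins are small acidic stress sensors that bind PCNA, Cdkn1a and the kinase Map3k4, which lies upstream of p38 and JNK. In liver, Gadd45b, Btg2 and Cdkn1a are known as early genes of the regenerative response.

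The members lie on 7 chromosomes (GRCm38, GENCODE vM21): Btg2 at chr1:134075170-134079120, Trp53inp1 at chr4:11156431-11174379, Gadd45a at chr6:67035096-67037457, Gadd45b at chr10:80930073-80932204, Mdm2 at chr10:117688875-117710758, Ccng1 at chr11:40748552-40755311, Gadd45g at chr13:51846678-51848468, Plk2 at chr13:110395046-110400844 and Cdkn1a at chr17:29090976-29100727. A search of their promoters gave motif matches in 4 of them. A RefSeq window (GRCm38.p6) of 250 bases before to 50 after the start was found for 8 of the 9 members, and Trp53inp1 had none. Cdkn1a had 2 windows, at different starts. The windows were searched on both strands for the p53 response element (2 adjoining decamers, at most 1 mismatch) and for TGACGTCA, the palindromic cAMP response element. The first was found in 29 of 32851 promoters (0.0883%), among them Ccng1 and the upstream of both Cdkn1a windows, each with 1 mismatch. The other window of Cdkn1a (chr17:29093519-29093818, plus strand) held none of the motifs searched. The second was found in 588 (1.79%), among them Btg2 and Plk2. The AP-1 motif TGANTCA, in 2565 promoters (7.81%), was found in no member. The 3 motifs do not overlap in the members, a match is a description and not a bound site, and the search was added after the members' values were known. Sequence outside the windows was not searched, so a window without a match does not set a member apart. The stretches around the matches are printed 5′ to 3′ in the direction of the gene, with the matched letters in capitals. They cover Cdkn1a at chr17:29090883-29090978 (plus strand, match 51 to 32 bases before the upstream start), Ccng1 at chr11:40755417-40755526 (minus strand, 195 to 176 before), Btg2 at chr1:134079269-134079366 (minus strand, 166 to 159 before) and Plk2 at chr13:110394937-110395034 (plus strand, 62 to 55 before).
Cdkn1a: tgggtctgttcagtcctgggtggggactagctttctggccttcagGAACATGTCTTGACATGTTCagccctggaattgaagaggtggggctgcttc
Ccng1: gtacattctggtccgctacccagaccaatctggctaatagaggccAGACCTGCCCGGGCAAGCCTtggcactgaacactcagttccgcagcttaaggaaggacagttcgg
Btg2: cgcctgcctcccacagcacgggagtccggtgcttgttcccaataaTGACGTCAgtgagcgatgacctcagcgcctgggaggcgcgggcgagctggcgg
Plk2: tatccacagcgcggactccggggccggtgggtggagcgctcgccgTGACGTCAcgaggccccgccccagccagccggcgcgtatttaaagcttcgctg

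Liver held 15000 hepatocyte nuclei, Cell Suspension 12634 and Primary Hepatocytes 14833, and they carried 6860168 to 29018248, 2065229 to 17389720 and 9596129 to 20300379 UMIs per sample. The 10 hepatocyte markers were all detected in each group, with summed levels in hepatocyte nuclei of 13458 to 18547 CPM (UMIs of the gene scaled to a total of 1e+06) in Liver, 17403 to 21913 in Cell Suspension and 2933 to 7140 in Primary Hepatocytes. The 10 endothelial markers summed to 33.3 to 52.5, 36.0 to 71.2 and 110.2 to 172 CPM in the same nuclei, and the 10 stellate markers to 30.1 to 59.5, 25.5 to 62.5 and 96.5 to 665 CPM. The 10 Kupffer markers summed to 10.6 to 20.4, 7.80 to 33.4 and 11.6 to 23.6 CPM. Leukocyte markers summed to 13.4 to 31.9, 10.4 to 32.4 and 49.9 to 68.6 CPM, and biliary markers to 139.6 to 204, 131 to 200.04 and 311 to 437 CPM. Endothelial, stellate, leukocyte and biliary markers, but not Kupffer markers, were thus higher in the cultured nuclei counted as hepatocytes, and their part in the results on Primary Hepatocytes was not tested. A cluster of 2321 nuclei (1450 of them cultured, 705 from Cell Suspension and 166 from Liver) with a median of 1608 UMIs, against 5058 in its own samples, was left unnamed and outside the hepatocytes. Of 53128 distinct barcodes, 337 occurred in more than 1 pool.

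All 9 members had at least 10 counts in hepatocyte nuclei and entered the test. Between Liver and Cell Suspension, Gadd45a, Gadd45b, Gadd45g, Cdkn1a, Btg2 and Trp53inp1 rose, none fell, and Mdm2, Ccng1 and Plk2 did not pass the test. That is 6 of 9, where 7.69% of all genes tested were called higher and 13.8% lower (edgeR quasi-likelihood test, Benjamini-Hochberg adjusted p under 0.05). The members were chosen with earlier results of these data known. Shares of all genes, here and for the other cell types, are therefore a background and not a test of the members as a set. Between Cell Suspension and Primary Hepatocytes, the 3 Gadd45 genes and Btg2 fell and the other 5 rose, against 27.6% of genes higher and 24.0% lower. Over both steps, from Liver to Primary Hepatocytes, 8 members rose and Gadd45g fell, against 27.4% higher and 26.7% lower. The median log2 fold change of the members was 1.84, 0.85 and 2.22 in these comparisons, where that of all genes was 0.01, 0.01 and 0.04. The 3 comparisons share samples and are not independent of each other. Levels below are CPM after TMM scaling over 8 samples a group, each given as lowest, median and highest, except where unscaled CPM (of the library total alone) is stated. Of all called genes, 35.8% were higher in Cell Suspension than in Liver, and this split moved to 47.1% with RLE size factors, 48.9% with DESeq2 and 18.5% without scaling. For Primary Hepatocytes, the share higher was 53.5% over Cell Suspension and 50.7% over Liver, against 79.8% and 74.1% without scaling. No member changed direction in hepatocytes under these scalings.

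**Figure D1:**
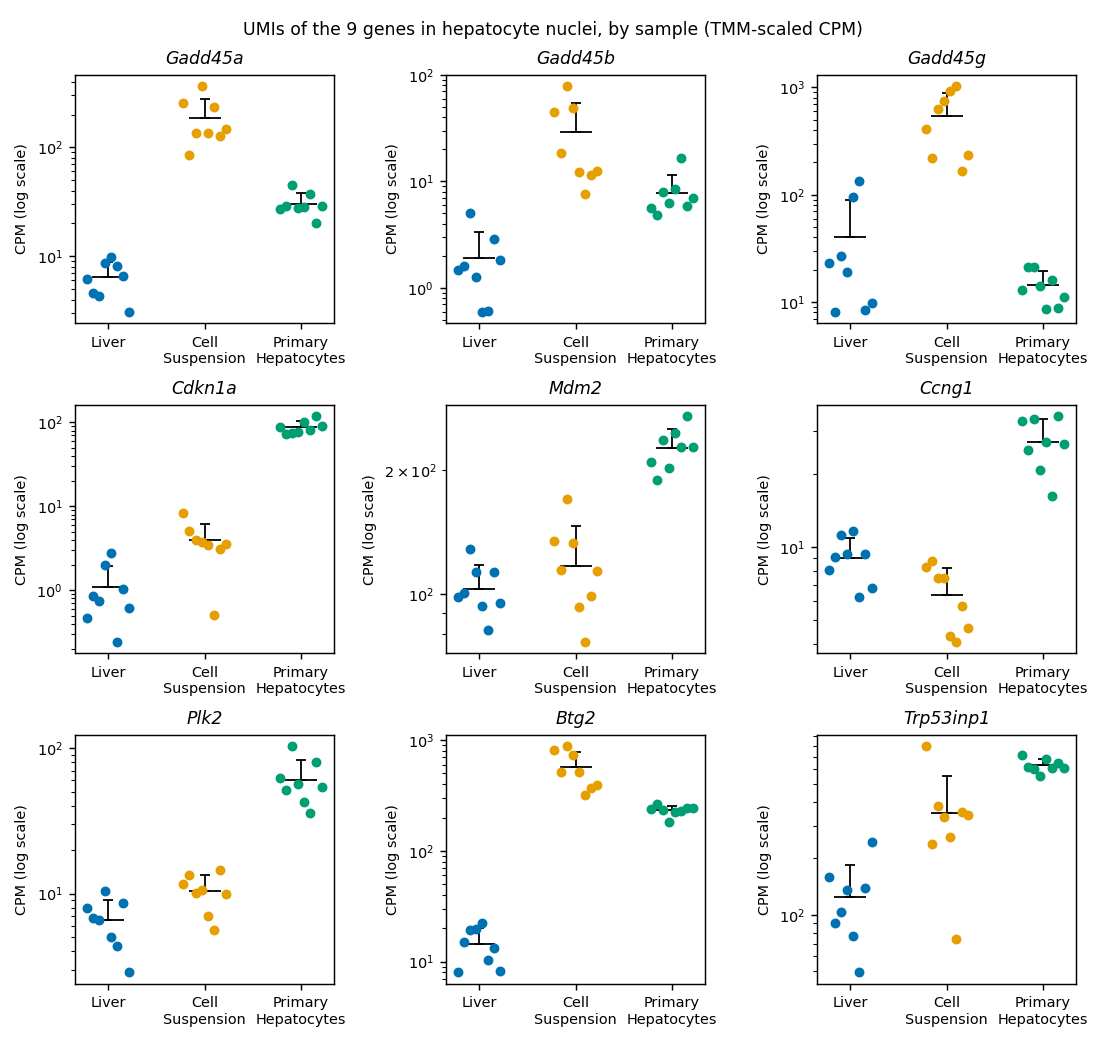
Level of each member in hepatocyte nuclei, in CPM after TMM scaling on a log axis, with 1 point per sample (8 mice), a bar at the group mean and a whisker up to the mean plus 1 SD, for Liver, Cell Suspension and Primary Hepatocytes. Btg2 and the Gadd45 genes are highest in Cell Suspension, whereas Cdkn1a, Ccng1, Plk2 and Mdm2 are highest in Primary Hepatocytes.

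Gadd45a, the family member best known as a p53 target, had 3.08, 6.32 and 9.93 CPM in Liver, 84.4, 141 and 367 CPM in Cell Suspension and 19.98, 28.6 and 45.04 CPM in Primary Hepatocytes. No range touched another, and the order was Liver, Primary Hepatocytes, Cell Suspension. The log2 fold change was 4.84 (SE 0.28, adjusted p = 1.06e-13) on isolation, then -2.61 (SE 0.25, adjusted p = 2.18e-10) in culture, which left a net 2.22 (SE 0.25, adjusted p = 7.54e-09). Btg2 shared this order, without overlap after TMM scaling.

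Gadd45b, which restrains JNK signalling and is induced by NF-kB and TGF-beta, was scarcer in counts, with 0.594, 1.53 and 5.07 CPM in Liver, 7.62, 15.4 and 79.1 in Cell Suspension and 4.80, 6.61 and 16.7 in Primary Hepatocytes. The Liver range lay below that of Cell Suspension, while Primary Hepatocytes overlapped both. The log2 fold changes were 3.94 (SE 0.47, adjusted p = 1.76e-07), -1.94 (SE 0.41, adjusted p = 1.83e-04) and 2.00 (SE 0.45, adjusted p = 3.43e-04) in the same order. With the pool as a term, the net rise of Gadd45b was 1.29 and not called (adjusted p = 0.0977).

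Gadd45g, the cytokine-induced member, had 8.09, 21.1 and 135 CPM in Liver, 165, 519 and 1035 CPM in Cell Suspension and 8.64, 13.6 and 21.4 CPM in Primary Hepatocytes. Mice 5 and 6 stood apart in Liver with 96.0 and 135 CPM, against 8.09 to 26.97 in the other 6, and they were also the highest in Cell Suspension with 919 and 1035 CPM. The rise on isolation was 3.73 (SE 0.53, adjusted p = 3.23e-06) and the fall in culture -5.25 (SE 0.57, adjusted p = 2.9e-09), both without overlap between the groups. The net log2 fold change of -1.52 (SE 0.49, adjusted p = 0.00927) rested on those Liver samples. It was -1.13 without mouse 5 (adjusted p = 0.0635), -0.98 without mouse 6 (adjusted p = 0.0743), -0.79 with the mouse as a block (adjusted p = 0.0606) and -0.94 without scaling (adjusted p = 0.0913).

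Within the 4 pools that held both Liver and Cell Suspension, the rise on the log2(CPM + 1) scale was 3.87 to 5.07 for Gadd45a, 1.62 to 4.97 for Gadd45b and 2.95 to 5.06 for Gadd45g. Within the 2 pools with Liver and Primary Hepatocytes, the differences were 1.57 to 1.76, 1.69 to 2.40 and -2.56 to -0.41. The direction of each Gadd45 gene was the same inside the pools as over all samples.

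Levels of Gadd45g in Liver and Cell Suspension went together by mouse. Across the 8 mice, its log2 level in Liver and in Cell Suspension correlated with Pearson's r = 0.89 (exact permutation p = 0.00246, adjusted over the 9 members 0.0221) and Spearman's rho = 0.905 (exact permutation p = 0.00456, adjusted 0.0411). Without the 2 mice farthest from the median in Liver, r was 0.89 again. None of the other 8 members passed the correction. By Pearson's r the next were Mdm2 with r = 0.80 (exact permutation p = 0.0193, adjusted 0.0869), at 0.21 without its 2 farthest mice, and Trp53inp1 with r = 0.76 (exact permutation p = 0.0358, adjusted 0.107). By Spearman's rho the next was Plk2 with 0.762 (exact permutation p = 0.0368, adjusted 0.1375). Its r was 0.55, and 0.94 without its 2 farthest mice. A pool held too few of these pairs for a value of its own, and these relations were computed after the levels had been seen. Likeness by mouse was not particular to Gadd45g. Over 8601 genes, deviations from the group mean correlated at a median of 0.680 between both samples of a mouse, and of -0.0820 between different mice. That is a correlation over genes, and the share of genes passing the test across mice was not computed.

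Cdkn1a, the p21 inhibitor of cyclin-dependent kinases, showed the widest net change among the 9 genes. It had 0.241, 0.802 and 2.76 CPM in Liver, 0.508, 3.69 and 8.42 in Cell Suspension and 72.9, 85.5 and 119 in Primary Hepatocytes. Cultured samples lay far above both others, while Liver and Cell Suspension overlapped. The log2 fold change was 1.84 (SE 0.37, adjusted p = 3.42e-04) on isolation, 4.43 (SE 0.33, adjusted p = 8.79e-13) in culture and 6.26 (SE 0.35, adjusted p = 1.43e-15) over both. Barcodes under 100 UMIs outside the nuclei were read as mainly free RNA, which was not tested. They had Cdkn1a at an unscaled 78.3 to 155 CPM in pools 3, 4 and 5 (48 to 76 UMIs). In pools 1, 2 and 6 they had 6.12 to 17.4 CPM (3 to 10 UMIs). Cultured samples were run in pools 2 to 5. The highest Liver levels, 2.00 and 2.76 CPM in mice 4 and 5, came from pools 2 and 5, and the Cell Suspension samples of mice 1 to 4 from pools 3, 4 and 5. In pools 1 and 6, which held no cultured sample, the isolation difference was 1.21 and 0.00 on the log2(CPM + 1) scale. The part of free RNA in the low levels of Cdkn1a before culture was not tested.

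Btg2, an antiproliferative protein that binds the CCR4-NOT deadenylase, rose earlier. Its levels were 8.004, 14.2 and 22.3 CPM in Liver, 321, 514 and 879 in Cell Suspension and 184, 236 and 263 in Primary Hepatocytes. After TMM scaling the 3 ranges did not overlap. In unscaled CPM, Cell Suspension (285 to 653) and Primary Hepatocytes (273 to 363) did. Isolation gave a log2 fold change of 5.28 (SE 0.25, adjusted p = 9.43e-16), the largest among the members, and culture one of -1.29 (SE 0.21, adjusted p = 4.45e-06), for a net 3.99 (SE 0.24, adjusted p = 3.69e-15).

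Ccng1, cyclin G1, which brings the phosphatase PP2A to Mdm2, differed from the others on isolation by a value below 0. It had 6.22, 9.25 and 11.7 CPM in Liver, 4.06, 6.58 and 8.72 in Cell Suspension and 16.3, 26.8 and 34.6 in Primary Hepatocytes. The log2 fold change on isolation was -0.49 (SE 0.18, adjusted p = 0.0540), with overlap. It was called with the mouse as a block (-0.48, adjusted p = 0.0179), with the pool as a term (-0.78, adjusted p = 0.00364), with spliced UMIs alone (-0.71, adjusted p = 0.00838), without scaling (-0.65, adjusted p = 0.00558), without mouse 1 (-0.58, adjusted p = 0.0385) and without mouse 6 (-0.47, adjusted p = 0.0447). The other alternatives, RLE size factors and DESeq2 among them, did not call the isolation change of Ccng1. Culture raised Ccng1 by 2.08 (SE 0.18, adjusted p = 3.66e-11) over Cell Suspension and 1.59 (SE 0.17, adjusted p = 1.91e-09) over Liver, without overlap.

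Plk2, a polo-like kinase of centriole duplication, had 2.87, 6.69 and 10.4 CPM in Liver, 5.59, 10.3 and 14.6 in Cell Suspension and 35.6, 54.9 and 103 in Primary Hepatocytes. Its log2 fold change on isolation was 0.62 (SE 0.23, adjusted p = 0.0581). It was called with the mouse as a block (0.64, adjusted p = 0.00427), with RLE size factors (0.70, adjusted p = 0.0309), with DESeq2 (0.71, adjusted p = 0.0166), with edgeR's own filter on low counts (0.70, adjusted p = 0.0263), without mouse 4 (0.75, adjusted p = 0.0340) and without mouse 6 (0.65, adjusted p = 0.0417). The value was higher over all nuclei of the sample (1.01, adjusted p = 0.00187) and with sums thinned to the smallest (1.05, adjusted p = 0.0156). The other alternatives, the pool as a term among them, did not call the isolation change of Plk2. Culture raised Plk2 by 2.58 (SE 0.23, adjusted p = 6.4e-11) over Cell Suspension, and the net change was 3.20 (SE 0.23, adjusted p = 4.13e-13).

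Mdm2, the ligase that marks p53 for degradation, did not pass the test on isolation. It had 81.6, 99.4 and 129 CPM in Liver, 76.3, 114 and 169.6 in Cell Suspension and 189, 227 and 270.0 in Primary Hepatocytes. The first groups overlapped (log2 fold change 0.18, SE 0.13, adjusted p = 0.375), and with the pool as a term the value was -0.03. Cultured samples lay above all others, with 0.95 (SE 0.13, adjusted p = 2.73e-07) over Cell Suspension and 1.13 (SE 0.13, adjusted p = 9.57e-09) over Liver.

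Trp53inp1, a nuclear stress protein that binds p53 and the kinase Hipk2, rose at both steps. It had 49.3, 119.6 and 245 CPM in Liver, 74.7, 339 and 795 in Cell Suspension and 553, 613 and 711 in Primary Hepatocytes. Cell Suspension spread over both neighbours in this order, from 74.7 CPM in mouse 6, which was also lowest in Liver, to 795 in mouse 1. In unscaled CPM, Primary Hepatocytes (778 to 921) lay above Cell Suspension (66.3 to 621) without overlap. The log2 fold changes were 1.48 (SE 0.29, adjusted p = 3.26e-04), 0.85 (SE 0.29, adjusted p = 0.0136) and 2.33 (SE 0.30, adjusted p = 7.69e-08).

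Within pools, the 2 genes with a called isolation step and pool differences on both sides of, or near, 0 were Trp53inp1 (-0.25 to 2.10 in 4 pools) and Cdkn1a (0.00 to 1.21). For Btg2 the 4 pools gave 4.44 to 4.97, and for Ccng1 -0.93 to -0.57. Mdm2 (-0.28 to 0.51) and Plk2 (-0.29 to 1.25) took both signs. These pool differences mostly compare different mice. Between the samples of the same mouse, Trp53inp1, Cdkn1a and Plk2 were higher in Cell Suspension than in Liver in each of the 8 mice. Mdm2 was lower in Cell Suspension in mice 5, 6 and 7 and higher in the rest. For the culture step, 8 members kept 1 sign in all 4 pools and Trp53inp1 did not (-0.26 to 1.06, after TMM scaling). In unscaled CPM, every cultured sample had more Trp53inp1 than any Cell Suspension sample. Over both steps, 2 pools gave 4.47 to 4.69 for Cdkn1a, 3.15 to 3.36 for Btg2, 2.33 to 3.65 for Plk2, 2.02 to 2.95 for Trp53inp1, 1.06 to 1.29 for Ccng1 and 0.83 to 1.30 for Mdm2.

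The share of spliced UMIs, out of spliced and unspliced, is a measure of the same genes that does not use their level. Over all genes the 3 groups had mean shares of 19.5% ± 1.71, 26.96% ± 3.08 and 28.6% ± 1.57 (SD, 8 samples each), and the share differed between Liver and each of the others (exact permutation p = 1.55e-04 for both, the smallest that 8 against 8 samples can give). It did not pass between Cell Suspension and Primary Hepatocytes (exact permutation p = 0.202). Against this shift, the members fell into genes that were mostly spliced throughout, such as Gadd45a and Gadd45g, and genes that were mostly unspliced, Mdm2 and Trp53inp1, with Ccng1 between them at 49.4%, 57.5% and 46.0%. The tests on members were two-sided exact permutation tests, adjusted over 27 tests. They tested for any difference and not for one beyond the shift of all genes. That shift was 7.50 points on isolation and 9.14 points from Liver to Primary Hepatocytes. The isolation gains of Btg2 (7.20 points) and Trp53inp1 (6.17 points) were not larger than it. The share of all genes with such a difference was not computed.

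Gadd45a kept a spliced share of 83.4%, 83.1% and 85.9% in Liver, Cell Suspension and Primary Hepatocytes, and none of its differences passed (adjusted exact permutation p from 0.143 to 0.892). Gadd45b had 73.0% ± 9.31 (SD, n = 6 Liver samples with enough UMIs), 64.8% ± 6.33 (n = 8) and 85.6% ± 2.34 (n = 8). Its share was thus higher by 20.7 percentage points in Primary Hepatocytes than in Cell Suspension (exact permutation, adjusted p = 0.00420), while its level was lower. Gadd45g reached 91.0%, 93.6% and 95.9%, with a difference of 4.96 points between Primary Hepatocytes and Liver (exact permutation, adjusted p = 0.0234).

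Btg2 rose from 84.2% in Liver to 91.4% in Cell Suspension (exact permutation, adjusted p = 0.0282) and stood at 92.4% in Primary Hepatocytes. Trp53inp1 rose at each step, from 25.6% to 31.7% and 38.4% (exact permutation, adjusted p = 0.0290 for both steps). Mdm2 gained spliced share on isolation without a called change of level, from 25.6% ± 4.23 to 37.4% ± 10.3 (exact permutation, adjusted p = 0.0290, n = 8 and 8), and had 30.6% in Primary Hepatocytes. For 2 genes whose level rose in culture, the spliced share fell. Ccng1 went from 57.5% in Cell Suspension to 46.0% in Primary Hepatocytes (exact permutation, adjusted p = 0.0282) and Plk2 from 84.4% to 76.1% (exact permutation, adjusted p = 0.0416). Cdkn1a had 66.3% in 4 Liver samples, 74.6% in 6 Cell Suspension samples and 60.8% in 8 Primary Hepatocytes samples, and the difference between the last groups had an adjusted exact permutation p of 0.0501. With ambiguous UMIs counted as spliced, the same exact test lost 3 calls, Plk2 in culture (adjusted p = 0.0629), Gadd45g in culture (adjusted p = 0.0510) and Mdm2 between Primary Hepatocytes and Liver (adjusted p = 0.0649). It gained 2, Cdkn1a in culture (adjusted exact p = 0.0244) and Ccng1 on isolation (9.11 points, adjusted exact p = 0.0370).

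**Figure D2:**
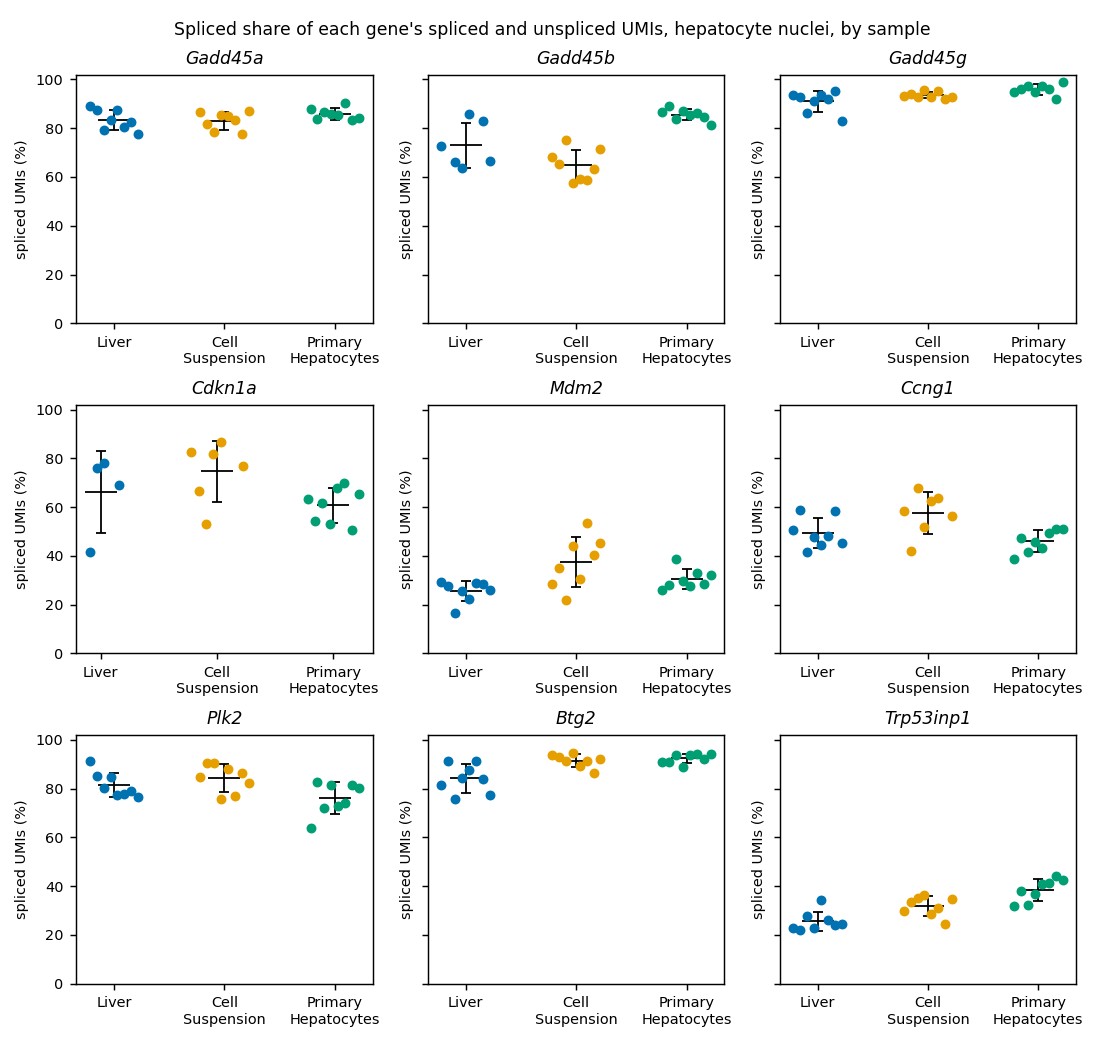
Spliced share of each member's UMIs in hepatocyte nuclei, in percent of spliced plus unspliced UMIs, as points per sample with the mean ± SD of Liver, Cell Suspension and Primary Hepatocytes. Gadd45a has means of 83.1 to 85.9%, Gadd45b is highest in Primary Hepatocytes, and Mdm2 and Trp53inp1 do not exceed 53.4% in any sample.

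Hepatocytes differ along the lobule, from the portal to the central vein. The hepatocyte nuclei of each Liver and Cell Suspension sample with at least 1000 UMIs were ordered by 10 pericentral and 10 periportal genes, none of them a member, and both ends of the order were compared in unscaled CPM (4828 nuclei an end in Liver, 4050 in Cell Suspension). The zone genes separated the ends, with 6274 against 437 CPM for the pericentral genes in Liver. This comparison was added after the data had been seen, with two-sided exact paired permutation tests adjusted over 18 tests. The smallest p of 8 pairs is 0.00781. The share of all genes that differ between the ends was not computed, nor was their median difference. Zone differences of the members are therefore not set against a general difference between the ends.

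In Liver, Gadd45a was higher at the pericentral end in 8 of 8 samples, with 7.51 ± 2.53 against 3.74 ± 1.72 CPM (difference 0.87 on the log2 scale, adjusted exact permutation p = 0.0176). Trp53inp1 (137 ± 67.0 against 95.0 ± 49.8 CPM, 8 of 8) and Mdm2 (104 ± 14.6 against 85.3 ± 13.0 CPM, 8 of 8) were also higher there, with the same adjusted p. Gadd45g was higher at the periportal end in all 8, with 48.6 ± 55.6 against 25.5 ± 30.0 CPM (difference -0.93, adjusted exact permutation p = 0.0176). Plk2 was lower at the pericentral end in 7 of 8 samples (5.75 ± 2.73 against 7.44 ± 3.16 CPM, difference -0.33, adjusted exact permutation p = 0.0312).

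After isolation, the pericentral side kept the higher level of Gadd45a (213 ± 101 against 98.8 ± 53.2 CPM), Mdm2 (111 ± 26.1 against 83.5 ± 13.5) and Trp53inp1 (388 ± 218 against 201 ± 121), each in 8 of 8 samples with an adjusted exact permutation p of 0.0176. Gadd45b joined them with 37.0 ± 27.5 against 10.5 ± 9.12 CPM in 8 of 8 samples (difference 1.75, adjusted exact permutation p = 0.0176). Its Liver difference of 1.18 rested on levels of 2.88 and 0.547 CPM and did not pass (adjusted exact permutation p = 0.0511). For Gadd45g the ends had 466.2 ± 285 and 422 ± 260 CPM in Cell Suspension, higher at the pericentral end in 4 of 8 samples (adjusted exact permutation p = 0.413). Plk2 had 6.81 ± 2.90 against 10.6 ± 4.25 CPM in Cell Suspension, higher at the pericentral end in 2 of 8 samples, a difference of -0.60 that did not pass (adjusted exact permutation p = 0.0511). Btg2 showed no called zone in either group (adjusted exact permutation p = 0.181 and 0.0820). Whether the zone differences themselves changed with isolation was not tested.

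**Figure D3:**
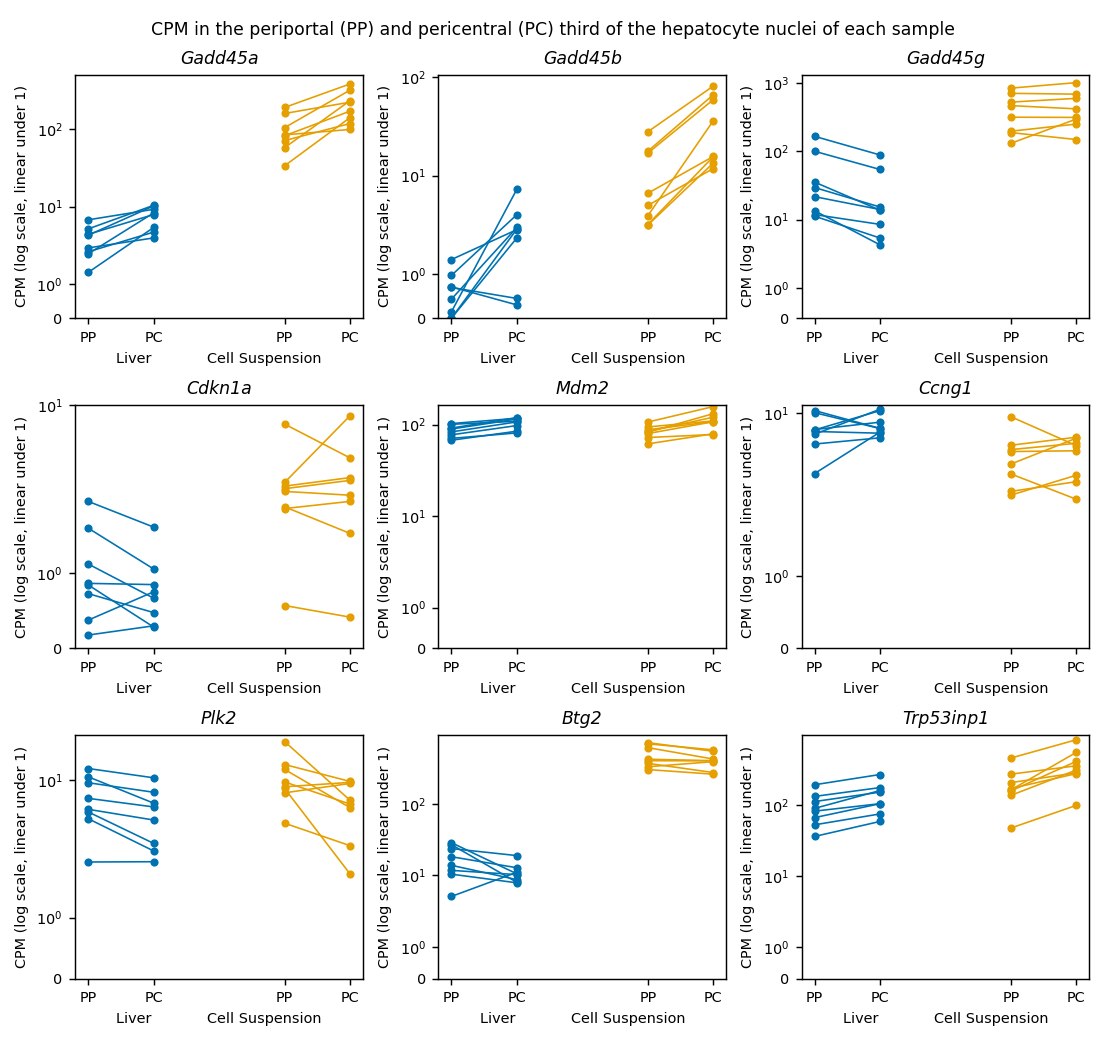
Level of each member in the hepatocyte nuclei at the periportal and at the pericentral end of each sample, in unscaled CPM on a log axis that is linear under 1, with a line joining the ends of 1 sample, for Liver and Cell Suspension. Gadd45a, Mdm2 and Trp53inp1 are higher at the pericentral end in all 8 samples of both groups, and Gadd45g is lower there in all 8 Liver samples.

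Cultured hepatocyte nuclei fell into clusters 0, 1, 14 and 17 of the deposited annotation, and the members differed among them. These are levels in CPM without TMM scaling over 8 samples, given with no test because the clusters were made from the same nuclei. Gadd45b was 59.5 ± 30.0 CPM in cluster 17 (1271 nuclei), against 6.51 ± 1.79, 5.59 ± 1.17 and 6.21 ± 2.42 in clusters 0, 1 and 14. Gadd45a was also highest in cluster 17, with 74.5 ± 16.9 CPM against 29.4 ± 11.1, 42.0 ± 11.4 and 52.3 ± 10.4, and Gadd45g had 42.6 ± 13.9 there against 12.04, 19.7 and 14.4. Btg2 went the other way, with 359 ± 40.8, 306 ± 35.2, 192 ± 25.6 and 123 ± 39.3 CPM in clusters 0, 1, 14 and 17. Plk2 was highest in cluster 0, with 112 ± 30.9 CPM against 47.3 ± 18.9 in cluster 1. Cdkn1a had 113 ± 22.1, 125 ± 21.5, 124 ± 18.7 and 99.9 ± 18.1 CPM in the same order. Cluster 17 held 20.1% of the hepatocyte nuclei of mouse 6 and 4.46 to 14.1% of those of the other mice, and mouse 6 had the highest Gadd45b of the cultured samples. Stellate markers summed to 554 CPM in cluster 17, against 144, 389 and 225 in clusters 0, 1 and 14, while endothelial and biliary markers were lowest there. Hepatocyte markers were highest in cluster 17 too, with 5915 CPM against 4522, 5138 and 3531. Mouse 6 also had the most stellate (665 CPM) and the most hepatocyte marker RNA (7140 CPM) in cultured hepatocyte nuclei. The part of stellate RNA in the levels of the members was not tested.

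Endothelial nuclei numbered 2474, 1152 and 1809 in the 3 groups. In culture, 1733 of the 1809 belonged to cluster 12, which carries the 10 endothelial markers. Its median was 1355 UMIs, against 5641 in its samples. Most cultured endothelial results rest mainly on that cluster, but those of Gadd45b do not. Of the 34 UMIs of Gadd45b in cultured endothelial nuclei, 12 lay in cluster 12. Endothelial nuclei of Liver and Cell Suspension held 2 and 6 UMIs of Gadd45b. On isolation, 6 of 9 members rose in endothelial nuclei and none fell, against 2.03% of genes higher and 1.87% lower. In culture, 5 rose and 2 fell against 9.33% and 10.7%, and over both steps 8 rose and none fell against 15.4% and 18.4%. The endothelial rise of Ccng1 in culture (1.16) was not called without mouse 3 (1.04, adjusted p = 0.0658), 5 (1.03, adjusted p = 0.0769) or 8 (1.07, adjusted p = 0.0627) or with unspliced UMIs alone (1.24, adjusted p = 0.117). Gadd45b, not called in culture (1.82, adjusted p = 0.0644), was called without mouse 3 (2.14, adjusted p = 0.0380) or 4 (2.36, adjusted p = 0.0302) or without scaling (2.00, adjusted p = 0.0396).

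Plk2 and Cdkn1a were higher in endothelial than in hepatocyte nuclei of each Liver sample, at 594% and 293% of the hepatocyte level or more. Plk2 had 47.8, 73.6 and 103 CPM there, where hepatocyte nuclei had 2.87, 6.69 and 10.4. It rose to 135, 190.3 and 315 CPM in Cell Suspension (log2 fold change 1.53, SE 0.18, adjusted p = 4.46e-08), and then fell to 68.5, 109.9 and 147 CPM in Primary Hepatocytes. Cdkn1a rose at both steps in endothelial nuclei, from 2.67, 6.46 and 8.27 to 5.78, 15.1 and 42.2 and then 44.8, 91.4 and 147 CPM. Its log2 fold changes were 1.65 (SE 0.36, adjusted p = 0.00307) on isolation and 3.97 (SE 0.27, adjusted p = 3.87e-15) over both steps. Without mouse 1 the first of these was 1.34 (adjusted p = 0.0861). In the pools without cultured samples, Cell Suspension had 6.17 CPM in mouse 6 (pool 6) and 5.78 in mouse 7 (pool 1), inside the Liver range. The other Cell Suspension samples, from pools 2 to 5, had 9.20 to 42.2 CPM. Endothelial Cdkn1a rested on 54 UMIs in Liver and 49 in Cell Suspension, and the part of free RNA was not tested.

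Gadd45a in endothelial nuclei went from 1.55, 3.69 and 11.8 CPM to 5.78, 22.8 and 122 and then rose further in culture to 17.9, 68.8 and 137, where in hepatocytes it had fallen. Its log2 fold change in culture was 1.53 (SE 0.36, adjusted p = 0.00145), and with unspliced UMIs alone -0.14. On isolation, Gadd45g (3.18, SE 0.40, adjusted p = 3.52e-07), Btg2 (2.64, SE 0.29, adjusted p = 1.8e-08) and Trp53inp1 (0.93, SE 0.24, adjusted p = 0.0159) rose as well. The rise of Trp53inp1 was not called without mouse 1 (0.68, adjusted p = 0.165) or mouse 8 (0.90, adjusted p = 0.0505) or with unspliced UMIs alone (0.84, adjusted p = 0.0712).

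RNA of hepatocytes was present in these nuclei. The 10 hepatocyte markers in endothelial nuclei summed to a median of 3154 unscaled CPM in Liver, 4654 in Cell Suspension and 3257 after culture, and none was at 0. This was 20.6% and 25.0% of their level in hepatocyte nuclei of the same sample in Liver and Cell Suspension. The 62.2% after culture is set against a hepatocyte level that had itself fallen, from a median of 15370.3 to 4382 CPM. Whether the part of hepatocyte RNA changed in culture was not tested. In Cell Suspension, the endothelial levels of Gadd45g (18.4%), Gadd45a (14.5%), Btg2 (26.5%) and Gadd45b (8.06%) were near or under that share, whereas Mdm2 had 87.0%, Cdkn1a 471% and Plk2 2059%. The endothelial levels of Plk2 and Cdkn1a were thus above those of hepatocytes. Barcodes under 100 UMIs of pools 3, 4 and 5, which held 7 of the 8 cultured samples, had 53.1 to 79.4 unscaled CPM of Gadd45a and 78.3 to 155 of Cdkn1a, where cultured endothelial nuclei had unscaled medians of 74.5 and 101. The same barcodes had 360 to 566 CPM of Trp53inp1, 198 to 324 of Btg2 and 149.9 to 210.4 of Mdm2, where cultured endothelial nuclei had 348, 121 and 162. Cultured endothelial medians of these 5 genes thus lay within or under the range of those barcodes, and that of Plk2 (113 CPM) above its 31.7 to 43.0. The part of hepatocyte and free RNA in the endothelial results was not tested.

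The response itself was compared between both cell types by an interaction term with the sample as a block. On isolation, Gadd45a (-2.52, SE 0.40, adjusted p = 1.92e-06) and Btg2 (-2.72, SE 0.25, adjusted p = 7.66e-16) rose less in endothelial than in hepatocyte nuclei, and the other 7 did not pass, against 0.608% of genes higher and 2.19% lower. Plk2 was among them (0.72, adjusted p = 0.0806). In culture, the interaction was above 0 for 5 members and below 0 for 2, against 13.3% and 6.71%. A value above 0 was not always a stronger endothelial response. Gadd45g fell in both cell types (-2.88 endothelial, -5.25 hepatocyte), and Btg2 fell in hepatocyte nuclei (-1.29) and was not called in endothelial nuclei (-0.23). The responses of Gadd45a (4.24, SE 0.28, adjusted p = 2.89e-26) and Plk2 (-3.13, SE 0.24, adjusted p = 1.43e-22) had opposite directions in the 2 cell types. The endothelial rise of Gadd45a was not seen with unspliced UMIs alone (-0.14), and the part of free RNA in it was not tested. Over both steps, the interaction was above 0 for 3 members and below 0 for 3, against 14.5% and 11.3%. Cdkn1a rose by 2.29 less on the log2 scale in endothelial than in hepatocyte nuclei (interaction -2.29, SE 0.34, adjusted p = 1.78e-08), and Mdm2 (-0.15, adjusted p = 0.640) and Ccng1 (adjusted p = 0.589) did not pass. Without scaling the value of Mdm2 was -0.58 and called (adjusted p = 0.0125), and Plk2 on isolation was called at 0.96 (adjusted p = 0.0219).

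Kupffer nuclei (919 in Liver, 342 in Cell Suspension) were compared for isolation alone, since 77 remained in Primary Hepatocytes. The 3 Gadd45 genes, Plk2, Btg2 and Trp53inp1 rose, 6 of 9 with none lower, against 1.08% of genes higher and 0.224% lower. Every member overlapped between the groups. Hepatocyte markers stood at a median of 21.0% of the hepatocyte level in Kupffer nuclei of Cell Suspension, and Gadd45a at 22.7%, Gadd45g at 16.4% and Btg2 at 24.4%, so that their levels there were close to the share of hepatocyte RNA. Gadd45b at 75.3%, Plk2 at 249.96% and Trp53inp1 at 41.3% were above it. The part of hepatocyte RNA was not tested. The call was lost without mouse 1 for Gadd45a (2.81, adjusted p = 0.0621) and Trp53inp1 (1.43, adjusted p = 0.0638), without mouse 3 for Gadd45a (2.39, adjusted p = 0.0647) and Plk2 (2.00, adjusted p = 0.231), without mouse 4 for Gadd45g (1.404, adjusted p = 0.0501), and without mouse 2, 6 or 7 for Plk2 (2.05, 2.43 and 2.16, adjusted p = 0.197, 0.0700 and 0.155). In Kupffer nuclei, Btg2 and Gadd45b kept their calls without each mouse in turn. Counts were low, with 4 UMIs of Gadd45b in Liver and 20 in Cell Suspension, 11 and 19 of Plk2 and 12 and 26 of Gadd45a. Btg2 had 70 and 149.

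Stellate nuclei were fewer (880, 148 and 192), and 7 Cell Suspension samples had the 10 nuclei required. Gadd45a, Gadd45g and Btg2 rose on isolation against 0.830% of genes higher and 1.44% lower, with hepatocyte markers at a median of 23.2% of the hepatocyte level, Btg2 at 38.2%, Gadd45a at 39.8% and Gadd45g at 13.5%. In culture, Cdkn1a, Mdm2 and Trp53inp1 rose and Gadd45g fell, against 4.29% and 6.56%. Over both steps 8 members rose, against 8.20% higher and 16.6% lower, and Gadd45g did not pass (adjusted p = 0.936). Among those that rose, Gadd45b rested on 2 UMIs in Liver and 8 in Primary Hepatocytes. Hepatocyte markers in stellate nuclei summed to a median of 3683 unscaled CPM in Liver and 2452 in Primary Hepatocytes. As a median share of the hepatocyte level in the same samples, which had itself fallen in culture, this was 23.7% and 51.5%. The part of hepatocyte RNA in the stellate results was not tested. The stellate rise of Plk2 over both steps was lost with the mouse as a block (1.28, adjusted p = 0.0609). The stellate rise of Trp53inp1 on isolation was called with RLE size factors (1.24, adjusted p = 0.0416), and that of Plk2 in culture without scaling (2.73, adjusted p = 0.0377). Cdkn1a had a median of 135 unscaled CPM in cultured stellate nuclei and of 0 in those of Liver. The cultured level was of the order of the 78.3 to 155 CPM of Cdkn1a in barcodes under 100 UMIs of pools 3, 4 and 5. In pools 1 and 6, with 6 of the 8 Liver samples, these barcodes had 6.12 and 12.3 CPM, on 3 UMIs each. The cultured sample of mouse 4, from pool 2 with 17.4 CPM there, had 105 CPM on 3 UMIs. Trp53inp1 and Mdm2, the other members that rose in culture, had unscaled medians of 279 and 195 CPM in cultured stellate nuclei, where the barcodes of pools 3, 4 and 5 had 360 to 566 and 149.9 to 210.4. The part of free RNA was not tested.

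**Figure D4:**
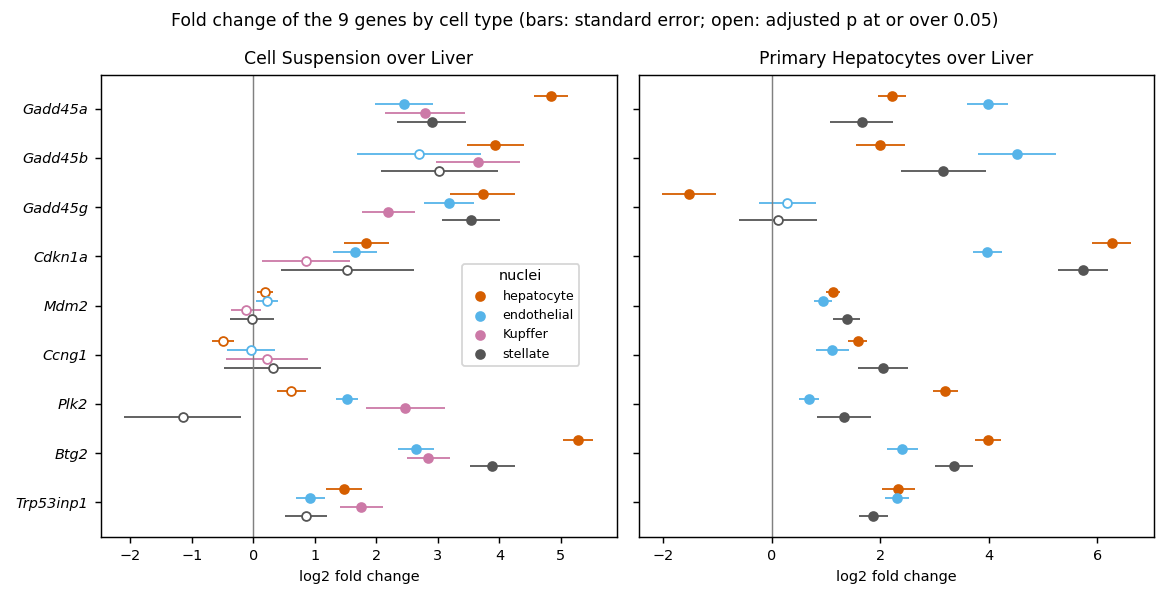
Log2 fold change of each member (± SE) in hepatocyte, endothelial, Kupffer and stellate nuclei, for Cell Suspension over Liver and for Primary Hepatocytes over Liver, with filled points for calls at an adjusted p under 0.05 and open points for the rest. Gadd45a, Gadd45g and Btg2 are called higher on isolation in all 4 cell types, and Cdkn1a is called higher in Primary Hepatocytes in each of the 3 types compared.

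The wider pathway was read from 4 lists, whose counts stand against 7.69% of all genes higher and 13.8% lower on isolation, 27.6% and 24.0% in culture, and 27.4% and 26.7% over both steps. A list's share near these is no result about the list. The lists were also chosen with earlier results of these data known, so a share above these is no test of a list. Of 49 other p53 targets in hepatocytes, 11 rose and 6 fell on isolation (median log2 fold change 0.23), 23 rose and 10 fell in culture (0.50), and 26 rose and 10 fell over both steps (0.59). On isolation, Gdf15, a stress cytokine, rose from 15.4 ± 8.71 to 225 ± 115 CPM (log2 fold change 3.87, SE 0.33, adjusted p = 4.48e-10). The kinase Plk3 rose from 75.5 ± 49.9 to 372 ± 106 CPM (2.30, adjusted p = 2.12e-07), and the receptor Epha2 from 23.3 to 87.0 CPM (1.90, adjusted p = 3.69e-08). Prkab1, an AMPK subunit (0.98, adjusted p = 2.32e-07), and Fbxw7, of a ubiquitin ligase (0.73, adjusted p = 3.54e-05), rose too. Ppm1d, the phosphatase that switches off p53 signalling, fell from 24.0 ± 3.46 to 12.3 ± 2.07 CPM (-0.95, adjusted p = 2.13e-07).

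Over both steps, the death receptors Eda2r (0.977 ± 0.327 to 24.8 ± 8.32 CPM, log2 fold change 4.63, adjusted p = 4.19e-15) and Tnfrsf10b (0.870 ± 0.253 to 13.5 ± 3.83 CPM, 3.93, adjusted p = 5.2e-15) rose. So did Apaf1, the scaffold of the apoptosome (6.80 ± 0.870 to 80.7 ± 21.1 CPM, 3.57, adjusted p = 2.66e-17), the nuclease Aen (19.2 ± 3.95 to 174 ± 21.3 CPM, 3.18, adjusted p = 1.25e-18) and the long RNA Pvt1 (109.5 ± 29.3 to 924 ± 124 CPM, 3.08, adjusted p = 1.53e-15). Tob1, an antiproliferative relative of Btg2, fell from 129 ± 27.2 to 16.6 ± 4.23 CPM (-2.95, adjusted p = 4.16e-16), opposite to the net rise of Btg2. In the culture step alone, Trp53cor1, an RNA next to Cdkn1a, rose from 3.33 ± 1.499 to 31.3 ± 3.45 CPM (3.31, adjusted p = 6.64e-12), and Dcxr, a carbonyl reductase, fell from 14.3 to 1.25 CPM (-3.49, adjusted p = 6.54e-17).

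Of 20 genes for p53 and its regulators, 1 rose and none fell on isolation (median -0.02), where Trp53 itself went from 28.9 ± 4.91 to 25.7 ± 3.24 CPM (-0.17, adjusted p = 0.377) and Mdm4, the inhibitory partner of Mdm2, from 189 to 180.0 CPM (-0.07, adjusted p = 0.683). In culture 7 rose and 6 fell, and over both steps 6 rose and 7 fell. Trp53 rose to 56.7 ± 10.4 CPM (0.97 over Liver, SE 0.12, adjusted p = 3.9e-08) and Mdm4 fell to 148 ± 8.37 CPM (-0.35, adjusted p = 0.00131). The kinase Hipk2 rose over both steps by 1.76 (adjusted p = 1.77e-08), and of the ASPP proteins Ppp1r13l rose by 1.75 (adjusted p = 2.39e-11) while Ppp1r13b had -1.09 (adjusted p = 6.67e-09). Sirt1, a deacetylase of p53, rose by 0.58 (adjusted p = 5.43e-05), and the acetyltransferase Crebbp had -0.71 (adjusted p = 6.23e-07). The checkpoint kinase Atr rose in the culture step by 0.69 (adjusted p = 2.88e-05).

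Of 12 Gadd45 partners, 1 rose on isolation, 3 rose and 5 fell in culture, and 5 rose and 5 fell over both steps. The kinase Map3k4, which Gadd45 proteins bind, rose over both steps by 0.36 (adjusted p = 0.00446), and of the 8 kinases below it in the list 5 fell, 2 rose and 1 did not pass. Those that fell were Map2k6 at -2.74 (adjusted p = 9.8e-08), Map2k7 at -0.93 (adjusted p = 2.62e-10), Mapk14, which is p38 alpha, at -0.91 (adjusted p = 1.15e-09), Mapk8, which is JNK1, at -0.57 (adjusted p = 1.18e-04) and Mapk9, or JNK2, at -0.35 (adjusted p = 0.00325). Map2k4 rose by 0.33 (adjusted p = 0.0119) and Mapk11 by 2.45 from 0.0815 to 0.453 CPM (adjusted p = 3.42e-05), and Map2k3 was at -0.08 (adjusted p = 0.683). Mapk9, Map2k4, Mapk11 and Map2k3 are given to complete the kinases and not by the rule for named genes. Pcna, the sliding clamp of replication, rose from 3.31 ± 0.975 to 11.1 ± 2.48 CPM (1.75, adjusted p = 3.54e-09). In the culture step alone, Mapk9 had -0.43 (adjusted p = 4.63e-04).

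Of 15 Cdkn1a partners and kin, 1 rose and 2 fell on isolation, 5 rose and 3 fell in culture, and 6 rose and 2 fell over both steps, with a median of 0.35 for the last. Cdk6, a kinase that Cdkn1a binds, rose from 203 ± 20.7 to 360.2 ± 86.8 CPM (0.83, adjusted p = 5.9e-06), and Ccne2, cyclin E2, from 6.33 ± 0.993 to 14.5 ± 3.01 CPM (1.19, adjusted p = 2.76e-07). Rbl2, the p130 pocket protein of resting cells, fell from 69.1 ± 10.0 to 24.1 ± 2.76 CPM (-1.52, adjusted p = 1.82e-12). In endothelial nuclei, 18 of 46 other p53 targets tested rose and 6 fell over both steps, and of the 12 Gadd45 partners 1 rose and 5 fell, against 15.4% of all genes higher and 18.4% lower.

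**Figure D5:**
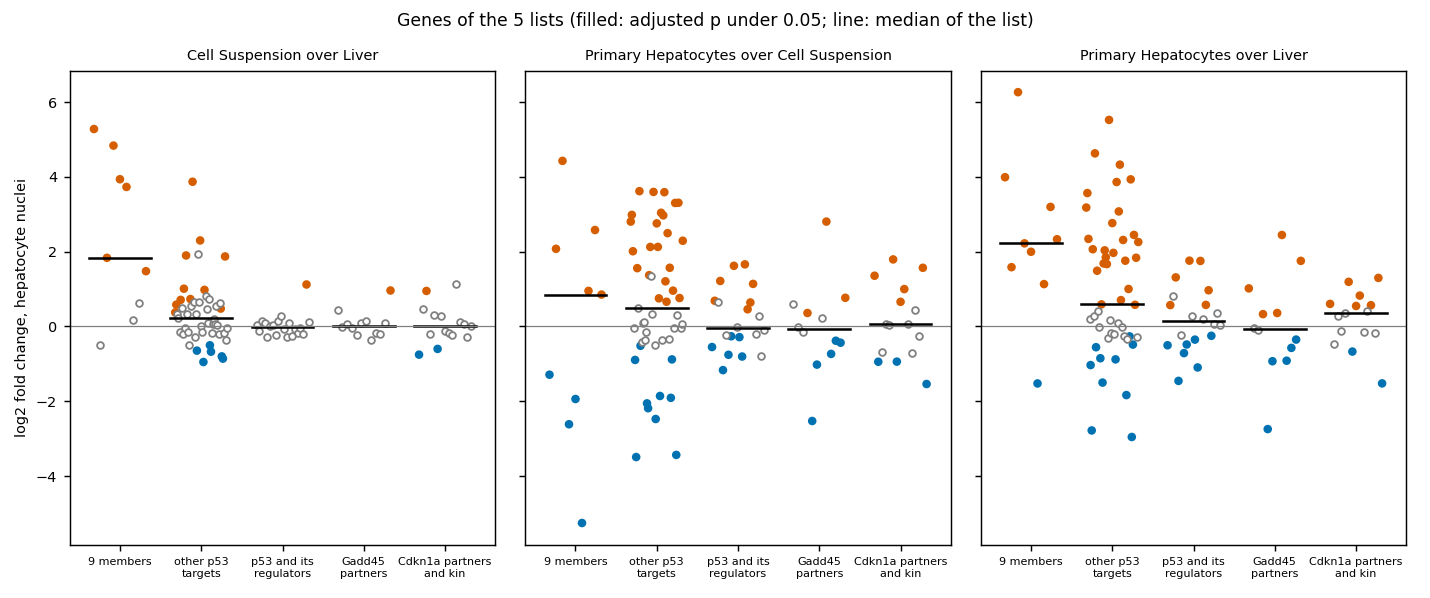
Log2 fold change in hepatocyte nuclei of the genes of 5 lists (the members, other p53 targets, p53 and its regulators, Gadd45 partners, Cdkn1a partners and kin) for 3 comparisons, with a line at each list's median and filled points for calls at an adjusted p under 0.05. The members and the other p53 targets have medians above 0 in each comparison, while the medians of the other 3 lists lie between -0.08 and 0.35.

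The genes whose hepatocyte pattern was most like each member's were found by Pearson's r of log2(CPM + 1) over the 24 sums, among 8601 genes of at least 10 CPM. The points share 3 sample types and 6 pools and are not independent, so no p is given. Gadd45a was closest to the early-response factors Atf3 (0.978), Jun (0.972) and Fos (0.965). Gadd45b was closest to Gdf15 (0.921), Zfand5 (0.917) and Krt18 (0.907), and Gadd45g to Plk3 (0.948), Socs3 (0.944) and Rbm25 (0.925). Btg2 came with Actb (0.988), Krt8 (0.986) and Tex14 (0.976). The genes that were highest in culture had other neighbours. They were Anxa2 (0.991), Akap2 (0.990) and Cox4i2 (0.989) for Cdkn1a, Pvr (0.976), Tanc1 (0.974) and Cblb (0.972) for Mdm2, Chmp4c (0.974), E330009J07Rik (0.966) and Snx12 (0.962) for Ccng1, and Src (0.970), Dnmt1 (0.968) and Ehd4 (0.965) for Plk2. Trp53inp1 had Actn4 (0.909), Skil (0.898) and Crybb3 (0.887). Gdf15 and Plk3 are thus both list members with a called rise on isolation and the closest genes to Gadd45b and Gadd45g.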

How the data were processed

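Nuclei of 24 samples (8 mice, 3 sample types) were sequenced by the authors as droplet-based 3′ libraries in 6 pools, pseudo-aligned on GRCm38 by Salmon Alevin and Alevin-fry, assigned to samples by hashtag (mclust) and freed of doublets (scDblFinder) before deposit. In the deposited matrices, values are raw UMI counts of each gene in each barcode, kept apart as spliced, unspliced and ambiguous. Labels of the nuclei (sample, cluster, cell type) came from the authors' deposited table, and no nucleus of it was removed. The hashtag counts were not used. The hashtag named CD2 was taken for mouse 2 of Cell Suspension, which had no other hashtag. Cultured clusters, which the table names as cultured cells, were divided by fixed markers into hepatocytes, cluster 12 (endothelial markers), cluster 27 (stellate) and the unnamed cluster 8.

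The 3 states were added and summed per sample and cell type, with at least 10 nuclei a sample. With edgeR 4.0.16 (R 4.3.3), a quasi-likelihood model of the sample type was fitted after TMM scaling to every gene that reached 10 counts in all, without covariates, and Benjamini-Hochberg adjustment ran over all genes tested. The SE is the log2 fold change over the root of F. Other tests were two-sided exact permutation tests, and spliced shares needed at least 10 UMIs. Alternatives were DESeq2 1.42.0, other scalings, filters, the mouse as a block, the pool as a term, splicing states, thinning and leaving out each mouse. scipy 1.17.1, numpy 2.4.6, pandas 2.3.3 and matplotlib 3.10.9 were used in Python 3.11.15. The tests were tried on simulated data first.

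Same-numbered samples came from the same mouse by the study's methods. Deviations from the group mean over 8601 genes correlated at 0.352 to 0.850 between Liver and Cell Suspension of the same mouse (median 0.680, different mice -0.0820). The median was 0.0434 between Liver and Primary Hepatocytes and 0.0231 between Cell Suspension and Primary Hepatocytes.

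The members and lists were chosen with earlier results of these data known. Of each list, up to 6 called genes per comparison with the largest absolute change and at least 10 CPM in 1 group were named, with Trp53 and Mdm4 always, and for likeness the 3 genes of highest r. p-values measure the spread between mice. Counts of nuclei and UMIs limit the precision of endothelial, Kupffer and stellate values.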

Additional observations from a re-analysis of the deposited data

Results flagged for a closer look

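Among 54 groups of 8 samples (9 members, 3 sample types, hepatocyte and endothelial nuclei), 7 held a sample far from the others by Dixon's criterion, where chance gives about 1 in 20. In hepatocyte nuclei they were Gadd45b in Primary Hepatocytes of mouse 6 (16.7 CPM), the sample in which cluster 17 made up 20.1% of the nuclei, and Trp53inp1 in Cell Suspension of mouse 1 (795 CPM). In endothelial nuclei they were Gadd45a in Liver of mouse 5 (11.8 CPM) and in Cell Suspension of mouse 4 (122 CPM), Gadd45b in Primary Hepatocytes of mouse 8 (39.2 CPM), Mdm2 in Cell Suspension of mouse 3 (141 CPM) and Plk2 in Cell Suspension of mouse 1 (315 CPM). Without mouse 4 the endothelial change of Gadd45a in culture was 2.20, and without mouse 8 that of Gadd45b over both steps was 3.47.

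The endothelial response differed from that of hepatocytes by the interaction test in 15 cases, given as endothelial minus hepatocyte log2 fold change. For Cell Suspension over Liver these were Gadd45a (-2.52) and Btg2 (-2.72). For Primary Hepatocytes over Cell Suspension they were Gadd45a (4.24), Gadd45b (3.67), Gadd45g (2.48), Cdkn1a (-1.85), Plk2 (-3.13), Btg2 (1.30) and Trp53inp1 (0.68). For Primary Hepatocytes over Liver they were Gadd45a (1.72), Gadd45b (3.41), Gadd45g (1.52), Cdkn1a (-2.29), Plk2 (-2.41) and Btg2 (-1.42). Without scaling, Trp53inp1 in culture was 0.04 (adjusted p = 1) and Gadd45g over both steps 1.08 (adjusted p = 0.0932), and neither passed, while Plk2 on isolation (0.96, adjusted p = 0.0219), Mdm2 in culture (-0.75, adjusted p = 0.00343) and over both steps (-0.58, adjusted p = 0.0125) and Ccng1 in culture (-1.26, adjusted p = 0.0208) did. Hepatocyte markers in endothelial nuclei summed to a median of 3154, 4654 and 3257 unscaled CPM in Liver, Cell Suspension and Primary Hepatocytes, where hepatocyte nuclei had 15370.3, 20550.1 and 4382 CPM, and the part of hepatocyte RNA in these differences was not tested.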

How the results depend on the processing

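Of the single-gene results recomputed under the alternatives, 1079 kept direction and side of the threshold, 25 gained a call, 27 lost one and 18 changed sign. The sign changes were of values not called, except Gadd45a in endothelial nuclei in culture, at -0.14 with unspliced UMIs. In hepatocytes, Mdm2 on isolation was -0.027 with the pool as a term. In endothelial nuclei, Ccng1 on isolation was 0.061 with RLE size factors, 0.13 with unspliced UMIs and between -0.60 and 0.35 when leaving out 1 mouse, above 0 without mouse 3, 4, 5 or 8, and Gadd45g over both steps was between -0.11 (without mouse 8) and 0.63. In Kupffer nuclei, Mdm2 was 0.059 with RLE, and Ccng1 between -0.58 (without mouse 8) and 0.49, also below 0 without mouse 2. In stellate nuclei, Mdm2 on isolation was 0.35 with RLE and 0.24 without scaling. Without scaling, the interaction on isolation was 0.039 for Gadd45b and 0.17 for Mdm2.

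With the mouse number as a replicate block, the calls of Ccng1 (-0.48) and Plk2 (0.64) on isolation were gained, those of Gadd45g (-0.79) and stellate Plk2 (1.28) over both steps were lost, and stellate Gadd45b in culture was -0.074. The block changed no other member's call. Numbers of genes called moved by over 1.5 times in few cases: 3138 in hepatocytes on isolation with sums thinned to the smallest, where fewer UMIs were tested, 197 in stellate nuclei and 448 for the interaction on isolation without scaling. Leaving out 1 mouse gave 432 to 768 in endothelial nuclei and 77 to 219 in Kupffer nuclei on isolation, lowest without mouse 1 in both. The median change of all genes moved to -0.14, 0.69 and 0.57 without scaling for the 3 comparisons. The cause of these shifts was not tested. Alternatives added after seeing the data were those without scaling, cluster 8 as hepatocytes, leaving out mice in Kupffer nuclei, and RLE and the block in stellate nuclei.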

Other observations

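Some values belong to no comparison above and were noticed after the levels had been seen. In hepatocytes of Cell Suspension, mice 1 to 4 had higher Gadd45b (18.3 to 79.1 CPM) than mice 5 to 8 (7.62 to 12.4), and Ccng1 showed the same division (7.44 to 8.72 against 4.06 to 5.72). The Cell Suspension samples of mice 1 to 4 were run in pools 3, 4 and 5 and those of mice 5 to 8 in pools 1, 2 and 6. In barcodes under 100 UMIs, Gadd45b had 17.6 to 20.9 unscaled CPM in the first 3 pools (10 to 19 UMIs) and 2.04 to 5.22 in the others (1 to 3 UMIs). Ccng1 had 19.4 to 32.7 (11 to 25 UMIs) and 2.04 to 15.7 (1 to 9 UMIs). The part of free RNA in the division was not tested. In Liver the same mice overlapped for both genes. In the unnamed cluster 8, the Liver nuclei held 19 UMIs of Cdkn1a, all of them in mouse 6.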
